A study of Homo sapiens with 60 samples.

Results

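The genes described here are 10 regulators and early effectors of the ATF4 branch of the integrated stress response, read in every library of a dose series of herbal extracts on A549 cells. They were chosen by name: the transcription factors ATF4, DDIT3, ATF3, CEBPB and NUPR1, and the effectors TRIB3, CHAC1, SESN2, DDIT4 and STC2. All 10 were among the 60675 Ensembl genes of the deposited table, and all 10 passed the low-count filter that left 18396 genes for testing. The lowest value of any of them in any library was 10 counts, for CHAC1.

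In the integrated stress response, several stress-sensing kinases phosphorylate the translation factor eIF2, which lowers protein synthesis overall while the mRNA of ATF4 is translated better. ATF4 then switches on genes for amino acid supply and redox balance, further transcription factors such as ATF3 and DDIT3 (also called CHOP), and feedback regulators. Because ATF4 is controlled largely at translation, its mRNA level is not a measure of its protein level, and no protein or phosphorylation was measured here.

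A549 is an established human lung carcinoma line, and RNA was taken after 24 h of exposure. The vehicle group (DMSO only) held 3 libraries; the labels give its concentration as 0.1% and the series description as 2%. The extracts were ethanol extracts of 4 herbs and 4 formulas, each at 3 doses 5-fold apart, named high, medium and low here. For Polygalae Radix these were 380, 76 and 15.2 µg/mL. For Aucklandiae Radix they were 370, 74 and 14.8 µg/mL. Both had 2 libraries per dose; the series description says that extracts with an IC20 under the common top dose were used at that IC20 and its dilutions. Guibi-tang, Saengmaek-san, Menthae Herba and Saposhnikoviae Radix were given at 500, 100 and 20 µg/mL with 3 libraries per dose. Soyo-san had the same doses with 2 libraries each, and Okbyeongpung-san with 1 library each. A pool of cultured cells gives 1 value per gene, so fewer expressing cells and less RNA per cell cannot be told apart. The labels do not say whether replicates were separate cultures, so each p-value rests on the spread of libraries, which may be technical.

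Totals ran from 17113963 to 33363661 expected counts per library. Of 7 epithelial and reductase genes that mark A549, KRT8, KRT18, AKR1B10 and AKR1C1 were abundant, with KRT8 between 441 and 4927 CPM (counts scaled to the normalised library total). KRT19, CDH1 and EPCAM were lower, at 2.13 to 46.2, 11.8 to 35.9 and 2.13 to 7.15 CPM. Of the markers of other cells, CD3E was at 0 in all 60 libraries and PTPRC in 55, while 4 fibroblast genes summed to between 11.1 and 40.4 CPM, nearly all of it COL1A1. No label names it, but the libraries formed 2 classes. One unnamed gene, ENSG00000282955, was below 3.50 CPM in 38 libraries, called class 1 here, and above 17.6 CPM in the other 22, called class 2. Mitochondrial mRNA made up 4.66% to 7.27% of class 1 libraries and 7.17% to 14.4% of class 2 libraries. All vehicle, Soyo-san and Okbyeongpung-san libraries were class 2 and all Menthae Herba and Aucklandiae Radix libraries class 1, so a comparison of these 2 herbs with vehicle is also a comparison of classes. The vehicle libraries were in addition a library set of their own. The comparison of high with low dose of 1 extract is free of the set, and for Menthae Herba and Aucklandiae Radix also of the class.

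The stretches upstream of the CHAC1 and ATF3 starts are shown because these genes moved furthest apart in Polygalae Radix and were the members whose windows held the C/EBP-ATF response element, the composite site that ATF4 and C/EBP factors are known to bind. The windows are the 250 bases before each RefSeq start on GRCh38.p14, on the plus strand at chr15:40953221-40953470 for CHAC1 and chr1:212565157-212565406 for ATF3. Capitals mark the match.
CHAC1: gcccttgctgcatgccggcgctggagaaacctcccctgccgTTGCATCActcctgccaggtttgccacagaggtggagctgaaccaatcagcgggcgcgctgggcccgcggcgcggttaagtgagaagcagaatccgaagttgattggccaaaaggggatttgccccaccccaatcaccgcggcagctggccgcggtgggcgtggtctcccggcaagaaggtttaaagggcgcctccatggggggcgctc
ATF3: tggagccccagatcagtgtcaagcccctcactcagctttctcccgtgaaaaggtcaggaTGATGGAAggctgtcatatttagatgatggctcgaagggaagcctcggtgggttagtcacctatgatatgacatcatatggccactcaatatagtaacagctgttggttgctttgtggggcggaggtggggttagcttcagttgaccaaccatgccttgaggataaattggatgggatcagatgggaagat
The letters searched were TGATGNAA on both strands. CHAC1 matched on the minus strand as TGATGCAA and ATF3 on the plus strand as TGATGGAA. The ATF3 window lies at 1 of its 2 RefSeq starts, the more upstream one. Of the 9 members with an entry, the other 7 had no match in their windows, and 3.14% of 35116 RefSeq windows of this length held one. The cAMP response element TGACGTCA was in 0 member windows and in 1.65% of all windows. A match describes letters only, and nothing about binding follows from its presence or absence.

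Seen across the extracts at the high dose, all calls were rises with Menthae Herba, Soyo-san and Guibi-tang, calls went both ways with Polygalae Radix and Aucklandiae Radix, and Saposhnikoviae Radix and Saengmaek-san had 0 to 2 calls. A gene is said to have risen or fallen where its adjusted p was under 0.05 in edgeR's quasi-likelihood test, adjusted over all genes. With Menthae Herba at the high dose 9 of 10 rose against the low dose and 0 fell, while 6.07% of all genes rose and 9.45% fell. The median log2 fold change of the 10 was 1.31, against -0.01 over all genes. Against vehicle 9 rose and 0 fell, with 14.6% of all genes higher and 15% lower. With Polygalae Radix 4 rose and 6 fell against the low dose, where 27.9% of all genes rose and 29.1% fell, and 3 rose and 6 fell against vehicle (30.1% and 29.5%). A call was thus common for any gene with that extract. With Aucklandiae Radix 3 rose and 1 fell against the low dose (9.12% and 9.33% of all genes), and 2 rose and 4 fell against vehicle (18.5% and 17.3%).

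**Figure D1:**
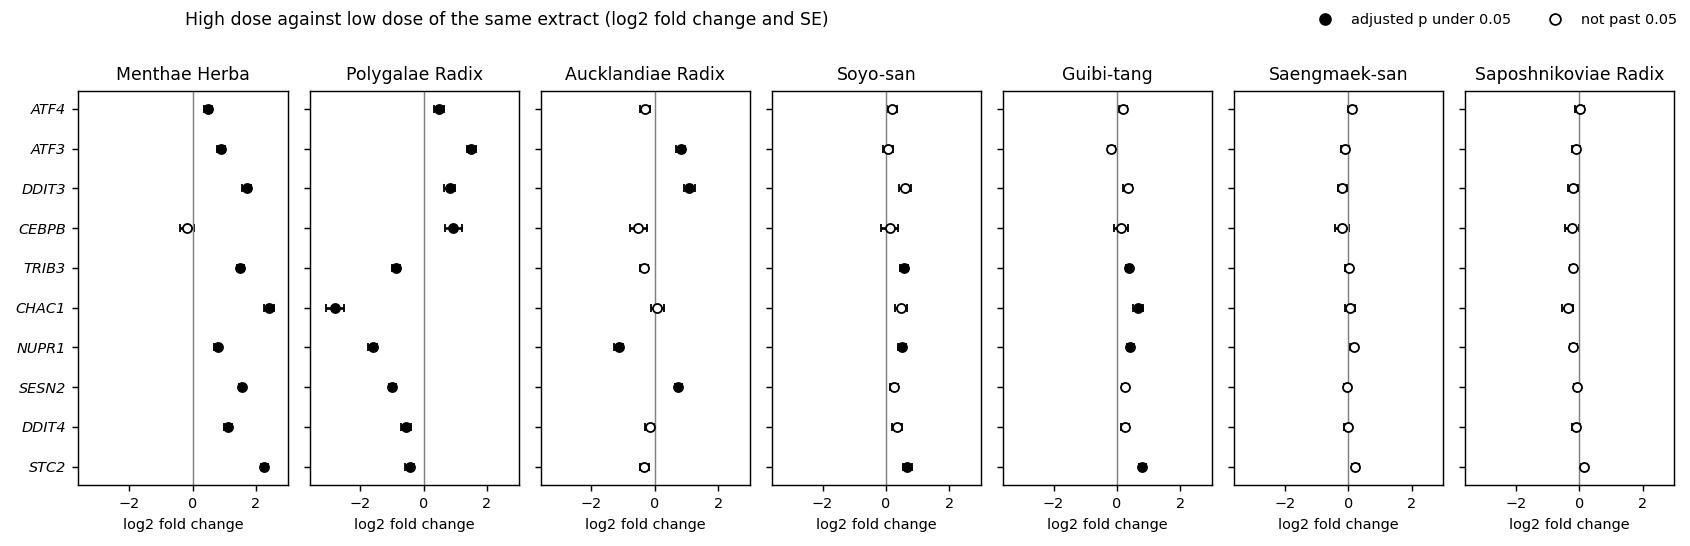
Log2 fold change of the high against the low dose of the same extract, with its SE, for the 10 genes (rows) in 7 extracts (panels). Filled points passed an adjusted p of 0.05. Menthae Herba has 9 filled points to the right and none to the left, Polygalae Radix has 4 to the right and 6 to the left, and Saengmaek-san and Saposhnikoviae Radix have none.

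ATF4, the central transcription factor of the branch (ENSG00000128272, chr22:39519695-39522685, GRCh38, plus strand), was the most abundant of the 10 per length in vehicle, at 112 CPM per kb of exon. Its level moved least: the highest library stood 2.07 times above the lowest. In vehicle it was 278, 291 and 273 CPM. With Menthae Herba at the high dose it was 362, 350 and 350 CPM, above all vehicle libraries and above the 250, 237 and 270 CPM of the low dose. The rise over the low dose was 0.49 ± 0.13 on the log2 scale (SE, adjusted p = 0.0064). Over vehicle it was 0.34 ± 0.13 (adjusted p = 0.0472), a call lost without any 1 of the 6 libraries. With library class as a covariate it was 0.72 (adjusted p = 1.75e-12). Menthae Herba and Aucklandiae Radix share no class with vehicle. Their covariate values against vehicle therefore borrow the class term from extracts with libraries of both classes, and assume the same class effect in all extracts.

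ATF4 was the member with the lowest adjusted p for library class. Class 2 libraries were higher by 0.38 ± 0.03 (log2, adjusted p = 1.9e-14), a class effect that 48% of all genes showed in either direction. With Guibi-tang at the high dose the class 1 libraries held 264 and 250 CPM and the class 2 library 361 CPM. With Saengmaek-san the class 2 libraries held 309 and 333 CPM and the class 1 library 228 CPM. Other members called higher in class 2 were CEBPB (0.45), CHAC1 (0.27) and NUPR1 (0.18), while DDIT4 (-0.26) and DDIT3 (-0.18) were lower. For DDIT3, CHAC1 and NUPR1 the calls of Menthae Herba, Polygalae Radix and Aucklandiae Radix at the high dose, against vehicle and against the low dose, were the same with the class covariate.

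The other extracts took ATF4 both ways. With Polygalae Radix it was 392 CPM in the class 2 library and 302 CPM in the class 1 library, against 246 and 253 CPM at the low dose, both class 1. That rise was 0.47 ± 0.16 (adjusted p = 0.0105), it was lost without high-dose replicate 2 or low-dose replicate 2, and with the single class 1 library of the high dose, inside class 1, the value was 0.28. An arm of 1 library has no spread of its own, so the p of this class 1 value is left out. Where 1 of 2 libraries was left out and a p is given, that p rests on the spread of the other groups. Against vehicle the value of 0.31 was not called (adjusted p = 0.0649), and with the class covariate it was 0.49 and called (adjusted p = 6.09e-09). With Aucklandiae Radix ATF4 was at its lowest of all 25 groups, 190 and 196 CPM. The fall against vehicle, -0.54 ± 0.15 (adjusted p = 0.00368), was -0.16 with the class covariate and its borrowed class term (adjusted p = 0.0588). Against the low dose, in libraries of 1 class, the value was -0.32 (adjusted p = 0.182). It was called with groups split by class (adjusted p = 3.13e-05), again on the same libraries with another estimate of spread. With Soyo-san, all class 2 like vehicle, ATF4 stood at 361 and 363 CPM, the highest group mean. Its difference from vehicle of 0.37 ± 0.14 missed the threshold (adjusted p = 0.0503). With groups split by class it passed (adjusted p = 5.32e-07), but on the same libraries with another estimate of spread. The table also lists 4 ATF4 pseudogenes, with which reads may be shared.

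**Figure D2:**
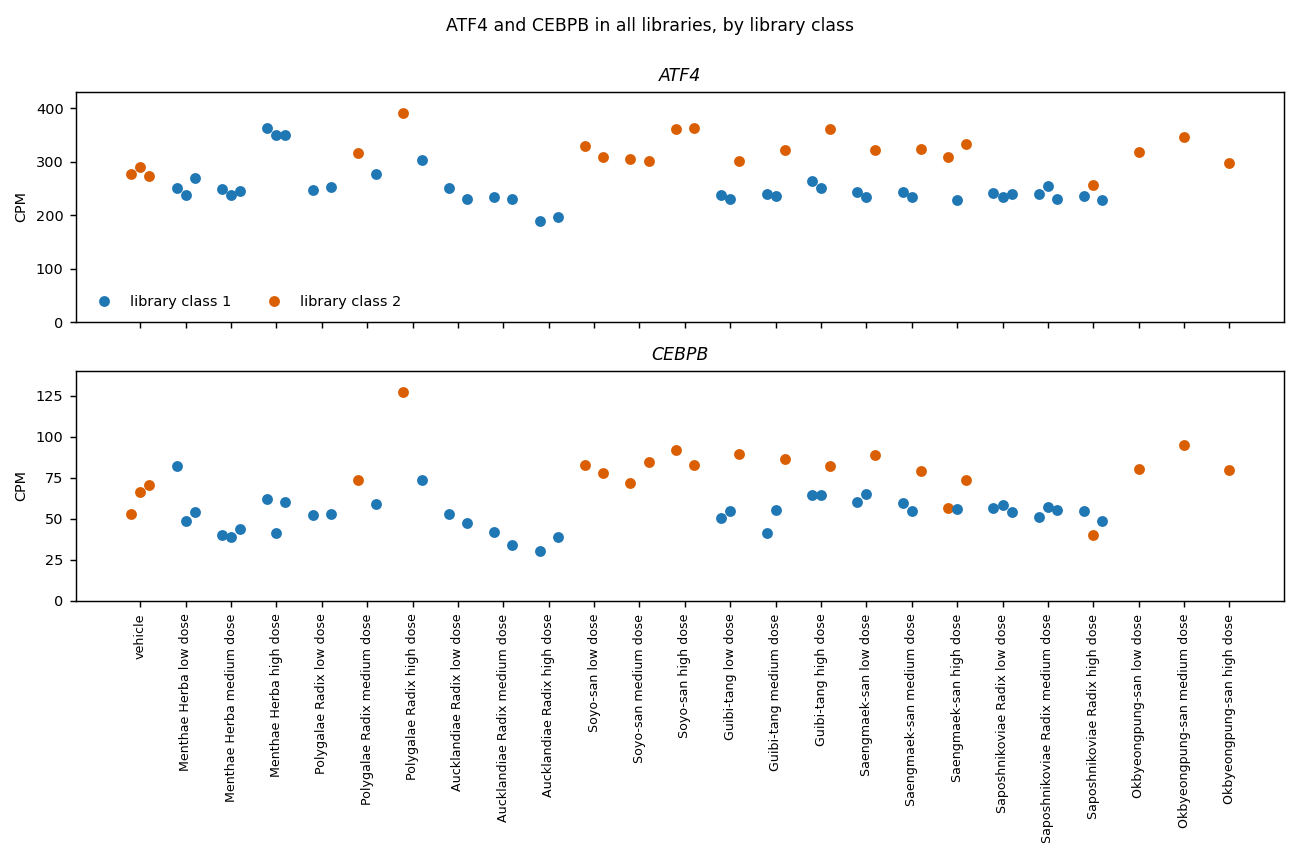
CPM of ATF4 and CEBPB (linear axes from 0) in all 60 libraries, grouped along the x axis by extract and dose and coloured by library class. In Guibi-tang and Saengmaek-san the class 2 libraries of ATF4 lie above the class 1 libraries of the same dose, for example 361 against 264 and 250 CPM in Guibi-tang high dose.

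DDIT3 and ATF3 are the stress-induced transcription factors downstream of ATF4; DDIT3 promotes cell death in prolonged stress, and ATF3 is an immediate stress gene with many other inducers. Both were low in vehicle, 8.21 ± 0.18 CPM for DDIT3 and 5.40 ± 0.32 CPM for ATF3 (SD, n = 3). They were the 2 members that rose over the low dose with all 3 of Menthae Herba, Polygalae Radix and Aucklandiae Radix. DDIT3 (ENSG00000175197, chr12:57516588-57521737, minus strand) reached 39.0, 22.9 and 23.3 CPM with Menthae Herba at the high dose, 17.3 and 17.8 CPM with Aucklandiae Radix and 13.4 and 16.1 CPM with Polygalae Radix. All these libraries lay above all vehicle and low-dose libraries of their comparisons. Against the low dose the rises were 1.71 ± 0.14 (adjusted p = 6.33e-13), 1.09 ± 0.17 (adjusted p = 4.45e-06) and 0.82 ± 0.17 (adjusted p = 8.1e-05). DDIT3 overlaps genes on the opposite strand in the annotation, MARS and MBD6. The kit keeps strand, but the counting's strand setting was not given in the sources used here, so the split of reads between them is uncertain.

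ATF3 (ENSG00000162772, chr1:212565334-212620777, plus strand) had another order among the herbs, with Polygalae Radix first. With Polygalae Radix at the high dose it was 18.4 and 19.4 CPM, the highest group of the 25 and separate from the next. Menthae Herba gave 15.1, 9.56 and 10.8 CPM and Aucklandiae Radix 11.7 and 11.9 CPM, ranges that overlap. Against the low dose the rises were 1.502 ± 0.142 with Polygalae Radix (adjusted p = 4.8e-12), 0.90 ± 0.12 with Menthae Herba (adjusted p = 1.41e-07) and 0.82 ± 0.14 with Aucklandiae Radix (adjusted p = 2.7e-05). ATF3 was also the single member that rose at a medium dose: 7.42 and 9.20 CPM with Polygalae Radix, 0.63 ± 0.14 over vehicle (adjusted p = 0.000714). That call was lost without medium-dose replicate 3 (adjusted p = 0.0655).

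CEBPB, a C/EBP family factor that pairs with ATF4 and DDIT3, was the member that did not pass the test with Menthae Herba. It was 61.8, 41.6 and 60.5 CPM at the high dose and 82.5, 48.5 and 54.4 CPM at the low dose, so the groups overlapped (log2 fold change -0.17 ± 0.22, adjusted p = 0.707). Its spread between replicates was wide: no neighbours in the order of its 22 replicated groups were separated. With Polygalae Radix it was 128 CPM in the class 2 library and 73.4 CPM in the class 1 library, above the low-dose 52.3 and 53.01 CPM. The rise of 0.93 ± 0.27 (adjusted p = 0.00295) rests on the class 2 library: without it, with 1 high-dose library left whose spread is taken from the other groups, the value was 0.47 (adjusted p = 0.205). With Aucklandiae Radix CEBPB was 30.5 and 39.2 CPM, below the 52.9 to 70.4 CPM of vehicle. That fall of -0.86 ± 0.25 (adjusted p = 0.00669) was -0.41 with the class covariate (adjusted p = 0.125) and was lost without high-dose replicate 2 (adjusted p = 0.121).

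NUPR1, a small chromatin-associated stress protein, was called higher than vehicle with 1 herb at the high dose and lower with 2. In vehicle it was 10.2, 9.84 and 9.90 CPM. Menthae Herba at the high dose took it to 18.3, 18.6 and 17.9 CPM, whereas Polygalae Radix took it to 3.80 and 3.22 CPM and Aucklandiae Radix to 4.54 and 4.74 CPM. None of these ranges touched that of vehicle or of the low dose. Against the low dose the changes were 0.79 ± 0.10 (adjusted p = 1.96e-07), -1.61 ± 0.15 (adjusted p = 2.09e-12) and -1.14 ± 0.14 (adjusted p = 3.65e-08). At the medium dose all 3 herbs left NUPR1 between 9.49 and 11.2 CPM. Soyo-san gave the highest group mean, from 16.7 and 20.8 CPM, a rise of 0.91 ± 0.12 over vehicle (adjusted p = 5.09e-07). With Saposhnikoviae Radix at the high dose NUPR1 lay between 8.025 and 8.551 CPM, below all vehicle libraries but not called.

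**Figure D3:**
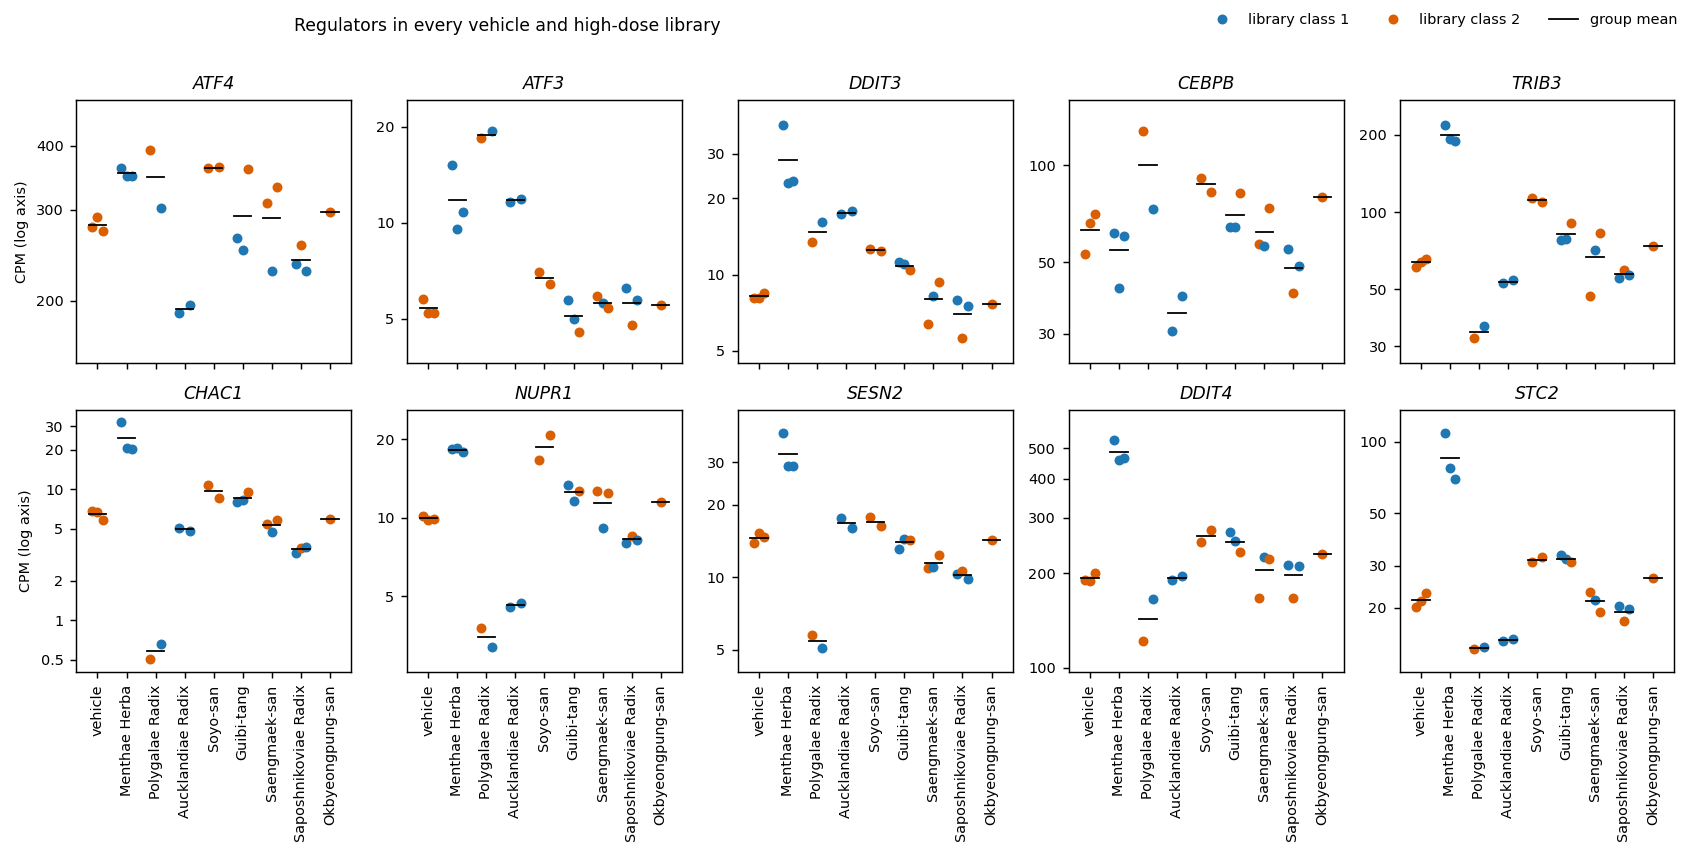
CPM (log axis, scaled for each gene) of the 10 genes in every vehicle and high-dose library, coloured by library class, with black bars at group means. Menthae Herba is highest for TRIB3, CHAC1, SESN2, DDIT4, STC2 and DDIT3, Polygalae Radix is lowest for CHAC1 at 0.507 and 0.663 CPM, and NUPR1 is low in Polygalae Radix and Aucklandiae Radix.

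TRIB3 is a pseudokinase that ATF4 and DDIT3 induce and that restrains both as feedback. Its vehicle level was 63.7 ± 2.2 CPM (SD, n = 3). Menthae Herba at the high dose gave 218, 192 and 189 CPM against 71.9, 67.2 and 71.3 CPM at the low dose, a rise of 1.51 ± 0.10 (adjusted p = 5.79e-15). Polygalae Radix gave 32.5 and 35.9 CPM against 61.3 and 64.7 CPM, a fall of -0.88 ± 0.13 (adjusted p = 1.92e-07). The order of groups was resolved best for this gene. Menthae Herba high dose stood alone at the top, Soyo-san high dose came next at 113 and 110 CPM, and Polygalae Radix high dose was lowest. With Guibi-tang TRIB3 was 77.6, 78.6 and 90.9 CPM, above the low dose by 0.37 ± 0.10 (adjusted p = 0.0321). Leaving out 1 library ended that call for 4 of the 6 libraries, with adjusted p up to 0.234: high-dose or low-dose replicate 2 or 3.

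CHAC1, an enzyme that degrades glutathione, had the widest range of the 10. Its highest library, at 32.3 CPM, held 63.6 times the CPM of the lowest, at 0.507 CPM. Menthae Herba at the high dose gave 32.3, 20.5 and 20.1 CPM against 4.66, 4.17 and 4.98 CPM at the low dose, a rise of 2.40 ± 0.16 (adjusted p = 1.19e-15). Replicate 1 was the highest of that group for CHAC1 and for 8 of the other members as well, and for NUPR1 it was in the middle. Polygalae Radix lowered CHAC1 step by step, from 4.27 and 4.10 CPM at the low dose to 1.61 and 1.82 CPM at the medium and 0.507 and 0.663 CPM at the high dose. The groups did not overlap. The fall from low to high dose was -2.80 ± 0.28 (adjusted p = 1.59e-11), and that of the medium dose from vehicle -1.90 ± 0.21 (adjusted p = 5.92e-09). The windows of CHAC1 and ATF3 were printed above because these members moved apart with this extract and held a response element. Their opposite directions here are thus part of that choice. Both rose with Menthae Herba. Aucklandiae Radix gave 5.03 and 4.83 CPM, with no call against either control (adjusted p = 0.0911 against vehicle and 0.842 against the low dose).

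**Figure D4:**
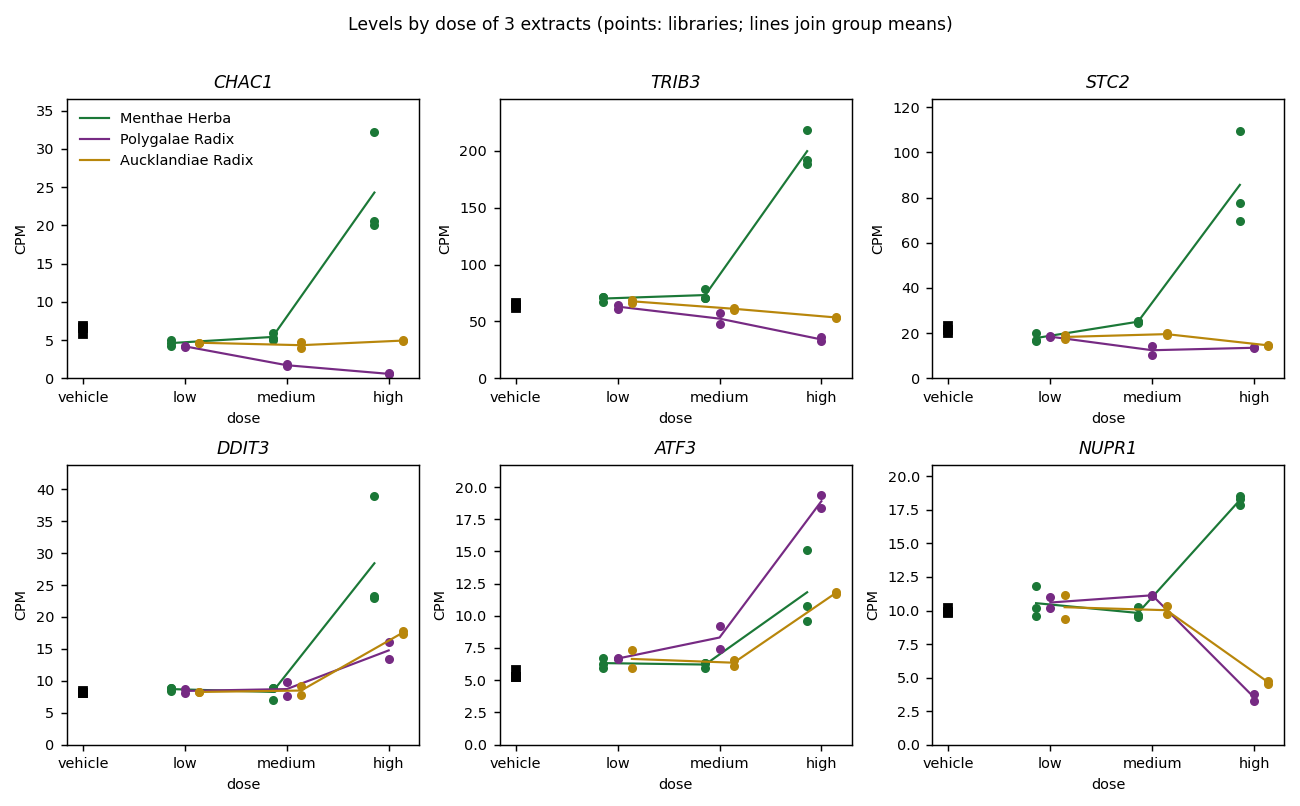
CPM (linear axes from 0) of 6 of the genes in vehicle (black squares) and at the low, medium and high dose of 3 herbs. Points are libraries and lines join group means. Menthae Herba lies near vehicle at the low and medium doses and high at the high dose, while CHAC1 falls stepwise with Polygalae Radix, to 1.61 and 1.82 CPM at the medium dose.

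SESN2 and DDIT4 both restrain the growth kinase complex mTORC1, SESN2 as a leucine sensor and DDIT4 (also called REDD1) through the TSC complex. SESN2 was 39.6, 28.8 and 28.9 CPM with Menthae Herba at the high dose against 11.1, 11.8 and 9.92 CPM at the low dose, a rise of 1.57 ± 0.09 (adjusted p = 7.87e-17). Aucklandiae Radix also raised it over the low dose, to 17.7 and 16.0 CPM from 9.95 and 10.2 CPM, by 0.74 ± 0.11 (adjusted p = 3.33e-06). Against vehicle SESN2 was not called with this extract, at a group mean of 16.8 CPM against 14.6 CPM. Polygalae Radix lowered it at the medium dose to 7.79 and 6.72 CPM and at the high dose to 5.78 and 5.07 CPM, the latter a fall of -0.98 ± 0.13 from the low dose (adjusted p = 8.25e-09). SESN2 had a peculiarity against vehicle. Vehicle libraries held 13.9, 15.3 and 14.7 CPM, and SESN2 fell below them at the low dose of 4 herbs, by -0.42 to -0.54. These include the 2 herbs whose high dose raised it over the low dose. Since vehicle was a library set of its own, the low-dose difference and the set cannot be told apart; the class coefficient of SESN2 was 0.09 (adjusted p = 0.15), and all 4 low-dose falls passed the test with the class covariate (adjusted p from 0.00448 to 0.025). Each was lost without some 1 of its low-dose libraries: replicate 2 or 3 of Polygalae Radix (adjusted p up to 0.14), replicate 2 of Aucklandiae Radix (0.119) or Saposhnikoviae Radix (0.0524), or replicate 3 of Menthae Herba (0.0553).

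DDIT4 was 531, 457 and 465 CPM with Menthae Herba at the high dose against 225, 206 and 241 CPM at the low dose, and the next highest high-dose library of any extract held 275 CPM, with Soyo-san. The rise was 1.11 ± 0.12 (adjusted p = 1.58e-09). With Polygalae Radix the class 2 library held 121 CPM and the class 1 library 166 CPM, both below the low dose at 231 and 193 CPM. That fall of -0.56 ± 0.15 (adjusted p = 0.0012) was -0.37 without the class 2 library, high-dose replicate 2 (adjusted p = 0.0779). Against vehicle the value was -0.43 (adjusted p = 0.00676), and -0.23 without that library (adjusted p = 0.249). With the class covariate the falls were called, -0.57 against vehicle (adjusted p = 8.5e-06) and -0.45 against the low dose (adjusted p = 0.000606). DDIT4 has an antisense gene, DDIT4-AS1, and CEBPB has CEBPB-AS1, so the limit on strand stated for DDIT3 holds for these as well.

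STC2, a secreted glycoprotein that the unfolded protein response induces, showed the lowest adjusted p of the 10 with Menthae Herba. It was 110, 77.5 and 69.7 CPM at the high dose and 20.1, 16.5 and 16.9 CPM at the low dose, a rise of 2.27 ± 0.11 (adjusted p = 1.51e-19). The medium dose gave 25.5, 25.1 and 24.6 CPM, above the vehicle libraries at 20.1, 21.2 and 23.1 CPM but not called. Guibi-tang gave 33.3, 32.1 and 31.2 CPM and Soyo-san 31.0 and 32.8 CPM, ranges that overlap each other and lie above vehicle. Their rises over the low dose were 0.80 ± 0.11 (adjusted p = 1.35e-06) and 0.68 ± 0.13 (adjusted p = 0.00309). The Guibi-tang call held whichever library was left out, and that of Soyo-san was lost without low-dose replicate 1 (adjusted p = 0.108). Polygalae Radix gave 13.4 and 13.7 CPM and Aucklandiae Radix 14.4 and 14.8 CPM, both below vehicle. The falls against vehicle were -0.67 ± 0.12 (adjusted p = 1.34e-05) and -0.56 ± 0.12 (adjusted p = 0.00036). Against the low dose the Polygalae Radix fall was smaller, -0.45 ± 0.13 (adjusted p = 0.0046), and the Aucklandiae Radix value of -0.33 was not called (adjusted p = 0.0839).

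For the formulas, Soyo-san at the high dose raised 6 members over vehicle, where 13% of all genes rose and 15.6% fell: DDIT3, TRIB3, CHAC1, NUPR1, DDIT4 and STC2, by 0.45 to 0.91. Both groups were class 2, but vehicle was another library set. At the Soyo-san low dose the means of TRIB3 and NUPR1 were 74.9 and 13.15 CPM, against 63.7 and 9.98 CPM in vehicle. That of STC2 was 19.95 against 21.49 CPM. The rises over vehicle and the set cannot be told apart. The CHAC1 call was lost without high-dose replicate 1 and that of DDIT4 without high-dose replicate 2. Over its own low dose 3 members rose, TRIB3, NUPR1 and STC2, where 0.402% of all genes rose and 0.837% fell; 0 to 2 calls were left with 1 library left out, 0 without low-dose replicate 1 and 1 without either replicate 2. Guibi-tang raised 4 members over its low dose, TRIB3, CHAC1, NUPR1 and STC2, where 0.962% of all genes rose and 1.97% fell. Over vehicle it raised 4, TRIB3, NUPR1, DDIT4 and STC2, where 4.51% rose and 5.05% fell. Without single libraries 1 to 3 of these calls were left in each comparison. The count was 1 without low-dose replicate 2 or high-dose replicate 3 against the low dose, and 1 or 2 against vehicle without any vehicle replicate or high-dose replicate 1 or 3. At the high and the low dose alike, 2 Guibi-tang libraries were class 1 and 1 was class 2. Vehicle was all class 2, and class 2 was lower in DDIT4 (-0.26) and higher in NUPR1 (0.18). DDIT4 was not called over the low dose of Guibi-tang.

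Saposhnikoviae Radix and Saengmaek-san gave 0 calls of 10 against their low doses in edgeR and in the DESeq2 Wald test, with 1 member each at an unadjusted p under 0.05; 0.0707% of all genes were called in each. Against vehicle, Saposhnikoviae Radix had CHAC1 lower by -0.89 ± 0.17 (adjusted p = 0.00206) and SESN2 by -0.51 ± 0.09 (adjusted p = 0.00168), where 0.593% of all genes were higher and 0.451% lower. Its high-dose CHAC1 libraries held 3.25, 3.57 and 3.62 CPM, below all vehicle libraries. Saengmaek-san had SESN2 lower by -0.35 ± 0.09 (adjusted p = 0.0251), where 1.96% of all genes were higher and 1.83% lower. This was a call that ended without vehicle replicate 2 or 3 or high-dose replicate 1 or 2.

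At the lower doses few members moved from vehicle. Over the 7 tested extracts, 8 of 70 gene and extract pairs were called at the medium dose, 1 higher and 7 lower, and 7 of 70 at the low dose, 1 higher and 6 lower. Of these 15 calls, 12 were falls of SESN2 or CHAC1, the others being ATF3 and STC2 with Polygalae Radix at the medium dose and NUPR1 with Soyo-san at the low dose. At the medium dose the share of all genes called was 18.3% with Polygalae Radix, which held 4 of the 8 calls, 7.94% with Saposhnikoviae Radix, 5.59% with Aucklandiae Radix and 5.54% with Menthae Herba. It was 0.582% with Guibi-tang, 0.391% with Saengmaek-san and 0.0652% with Soyo-san. At the low dose it was 13.1% with Menthae Herba, 10.7% with Soyo-san, 7.24% with Aucklandiae Radix, 6.39% with Polygalae Radix and 4.1% with Saposhnikoviae Radix, and 0.522% and 0.261% with Saengmaek-san and Guibi-tang. Of the 12 SESN2 and CHAC1 falls, those of CHAC1 at the low dose of Polygalae Radix and Menthae Herba were lost whichever library was left out, and with the class covariate. The low-dose count fell to 4 without any 1 of the vehicle libraries. With Menthae Herba at the medium dose no member rose, and SESN2 was lower by -0.32 (adjusted p = 0.0369), a call lost without any 1 of its 6 libraries. With the class covariate the SESN2 value there was -0.23 (adjusted p = 0.137).

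Extracts of the same library set were compared directly at their high doses, which for Menthae Herba and Saposhnikoviae Radix are the same concentration. Menthae Herba exceeded Saposhnikoviae Radix in 9 of 10 members (6.27% of all genes higher, 9.9% lower), by 0.56 ± 0.13 for ATF4 up to 2.80 ± 0.16 for CHAC1, with CEBPB not called (adjusted p = 0.638). Polygalae Radix at 380 µg/mL and Aucklandiae Radix at 370 µg/mL differed in 8 of 10 members (28.1% of all genes higher, 29.9% lower). Polygalae Radix had more ATF4 (0.85 ± 0.16), ATF3 (0.68 ± 0.14) and CEBPB (1.52 ± 0.27), and less CHAC1 (-3.03 ± 0.27), SESN2 (-1.64 ± 0.12), TRIB3 (-0.64 ± 0.13), DDIT4 (-0.43 ± 0.15) and NUPR1 (-0.42 ± 0.16). DDIT3 (-0.25 ± 0.16, adjusted p = 0.203) and STC2 (-0.11 ± 0.14, adjusted p = 0.521) were not called. The Polygalae Radix group held 1 library of each class, while the Aucklandiae Radix libraries were all class 1. Class 2 was higher in ATF4 (0.38), CEBPB (0.45), CHAC1 (0.27) and NUPR1 (0.18), and lower in DDIT4 (-0.26) and DDIT3 (-0.18). With 1 library left out, the differences smallest in size were 0.64 for ATF4, 1.06 for CEBPB and -0.23 for DDIT4. Guibi-tang exceeded Saengmaek-san in CHAC1 (0.70 ± 0.16) and STC2 (0.60 ± 0.11), where 0.636% of all genes were higher and 1.57% lower. Inside class 1 and class 2 alone the values were 0.80 and 0.75 for CHAC1 and 0.61 and 0.56 for STC2. In each class 1 arm held 1 library, so no p is given.

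Okbyeongpung-san, with 1 library per dose, allows no test. Of the 30 values, 2 were past 1.5-fold from the vehicle mean, CEBPB at 95.01 CPM and NUPR1 at 15.3 CPM, both at the medium dose; 13.1% of all genes passed 1.5-fold at that dose, 11.3% at the high and 10.9% at the low dose. From high to low dose 6, 6 and 7 of the 10 members lay above all vehicle libraries, and 1, 1 and 2 lay below. ATF4, TRIB3, CEBPB, NUPR1 and DDIT4 lay above at every dose. TRIB3, for example, was 73.9, 75.95 and 77.3 CPM against a vehicle mean of 63.7 CPM. The share of all genes outside the vehicle range was not computed. CHAC1 was 5.96, 5.41 and 6.33 CPM from high to low dose, inside or just below the vehicle range of 5.85 to 6.84 CPM.

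Over the 25 group means the effectors kept closely together. TRIB3 correlated with DDIT4 at r = 0.94, with STC2 at 0.91, with CHAC1 at 0.90, with SESN2 at 0.87 and with NUPR1 at 0.81 (Pearson, log2 CPM). ATF3 and NUPR1 ran opposite, at -0.54, and ATF4 and CEBPB together, at 0.83. These are descriptions over groups that share vehicle, library sets and classes. The non-member genes most like TRIB3 were GPT2 (0.96), SLC1A4 (0.92), SPX (0.91), MOCOS (0.88) and PYCR1 (0.88). Those most like ATF3 were ZNF274 (0.92), ZNF140 (0.90), ZNF407-AS1 (0.89), RFLNB (0.89) and an unnamed gene, ENSG00000260267 (0.88).

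The rest of the pathway was followed with lists that share no gene with the 10. Of 30 other ATF4 targets tested, 24 rose and 1 fell with Menthae Herba against the low dose (median log2 fold change 0.62). Of all genes 6.07% rose and 9.45% fell there. The rises were led by NIBAN1 (2.00 ± 0.13), ALDH1L2 (1.38 ± 0.09) and PCK2 (1.33 ± 0.09). With Polygalae Radix, where 27.9% of all genes rose and 29.1% fell, 1 of the 30 rose and 21 fell (median -1.07), led by the serine synthesis enzyme PHGDH (-3.51 ± 0.11), asparagine synthetase ASNS (-3.17 ± 0.09) and PCK2 (-2.59 ± 0.12). With Aucklandiae Radix 3 rose, GDF15, TNFRSF10B and NIBAN1, and 10 fell. Of all genes 9.12% rose and 9.33% fell there, so 3 rises of 30 are near the background. With Guibi-tang 10 rose and with Soyo-san 7, where 0.962% and 0.402% of all genes rose. GDF15, a secreted stress cytokine, is the exception to the Polygalae Radix pattern. It rose over the low dose with Polygalae Radix (1.34 ± 0.13, adjusted p = 1.118e-11), as it did with Aucklandiae Radix (1.098 ± 0.131) and Menthae Herba (0.99 ± 0.11), and its high-dose means were 42.9, 38.7 and 42.4 CPM against 20.1 CPM in vehicle. In this it moved as ATF3 and DDIT3 did.

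The upstream machinery of eIF2 (kinases, eIF2 and eIF2B subunits, phosphatase subunits and the mitochondrial relay, 19 genes) had 7 rises and 0 falls with Menthae Herba against the low dose, and 5 rises and 11 falls with Polygalae Radix. The shares of all genes that rose and fell were 6.07% and 9.45% with Menthae Herba, 27.9% and 29.1% with Polygalae Radix, and 9.12% and 9.33% with Aucklandiae Radix, so 5 rises of 19 with Polygalae Radix are near the background. PPP1R15A, the stress-induced phosphatase subunit that reverses eIF2 phosphorylation, rose with Polygalae Radix (0.96 ± 0.14, adjusted p = 1.875e-07) and with Menthae Herba (0.39 ± 0.12, adjusted p = 0.01601). ATF5 was not called over the low dose with any of the 7 extracts (adjusted p at least 0.2294), but was lower than vehicle with Polygalae Radix (-0.73, adjusted p = 0.003276) and Aucklandiae Radix (-0.53, adjusted p = 0.04279). Of 16 genes of the other arms of the unfolded protein response, those of IRE1 and ATF6, 3 rose and 6 fell with Menthae Herba, and 1 rose and 13 fell with Polygalae Radix, led by the chaperones CALR (-2.51 ± 0.08) and HSPA5 (-1.88 ± 0.07). Of 10 p53 targets, 8 rose and 0 fell with Aucklandiae Radix, led by BBC3 (1.077 ± 0.149), TP53INP1 (0.99 ± 0.17) and MDM2 (0.89 ± 0.12). With Menthae Herba 2 rose and 0 fell, BBC3 among them (1.116 ± 0.124), and with Polygalae Radix 1 rose and 5 fell. SESN2 is itself a known p53 target, and it was the effector of the 10 that rose with Aucklandiae Radix over the low dose, though it was not called over vehicle. Whether the p53 group and SESN2 are linked in these cells was not tested. DDIT4 is also a known hypoxia target. Of 9 other hypoxia targets, 2 rose and 2 fell with Menthae Herba, and 4 rose and 4 fell with Polygalae Radix, to be read against the shares of all genes given for the eIF2 genes.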

How the data were processed

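Directional mRNA libraries made from total RNA were read as paired ends, per the labels' protocols. The authors deposited expected counts per Ensembl gene for 60675 genes in 60 libraries. Tools listed in the submitters' processing notes are RSEM 1.3.3, STAR 2.7.3a, Trim Galore 0.6.5 and FastQC 0.11.9, and the build is GRCh38. The annotation release and the strand setting of the counting were not given in the sources used here. Values with decimals made up 9.95% of the table and were rounded to whole counts. Totals ran from 17113963 to 33363661 per library, and 0 columns were left unused.

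One edgeR 4.0.16 quasi-likelihood fit (R 4.3.3, TMM, filterByExpr) covered 57 libraries in 22 groups, with 18396 genes and 35 residual degrees of freedom. P-values were adjusted by Benjamini-Hochberg over all genes in each of 31 contrasts, with a threshold of 0.05. Each SE was taken as |log2 fold change| over the root of its F statistic, and SDs are given beside CPM. Okbyeongpung-san was kept out of the fit. CPM per kb used the exon length of GENCODE 29, which also gave positions; promoter windows are from RefSeq. Correlations used log2 CPM with a prior count of 2.

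The members and lists were chosen with earlier results of these data known. All 10 members are named, and of each list at most the 3 called genes with the largest change, besides PPP1R15A, ATF5 and GDF15. Library class was defined by 1 gene at 10 CPM. Alternatives were DESeq2 1.42.0 size factors and Wald test, no filter, a replicate block and only the groups compared. Others were library class as a covariate, groups split by library class, and each library left out in turn. Values inside a class are from the split groups, in a fit of all 57 libraries. The fit was tested on simulated data for 2 comparisons over 18396 genes. For Menthae Herba high dose against vehicle 55% of genes changed by 1.5-fold and 77% of those changed by 2-fold were recovered. For Polygalae Radix these shares were 44% and 74%. Only 100 genes were changed at each fold, and no library class effect was built in. In the real data far more genes were called and class differed from vehicle, so these shares do not carry over to the real comparisons.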

Additional observations from a re-analysis of the deposited data

Results flagged for a closer look

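Extracts that shared a library set were set against each other at their high doses, and these differences passed the test of the difference itself (edgeR, adjusted over all genes). All values are log2 differences. Menthae Herba exceeded Saposhnikoviae Radix, both at 500 µg/mL, in ATF4 (0.56), ATF3 (1.0799), DDIT3 (2.02), TRIB3 (1.80), CHAC1 (2.80), NUPR1 (1.14), SESN2 (1.66), DDIT4 (1.3) and STC2 (2.16). In all 9 the Menthae Herba libraries lay above all Saposhnikoviae Radix libraries, but these 9 were picked as called. The share of all genes whose libraries separated in this way was not computed. Of all genes, 6.27% were called higher and 9.9% lower. Polygalae Radix exceeded Aucklandiae Radix, at doses of 380 and 370 µg/mL, in ATF4 (0.85), ATF3 (0.68) and CEBPB (1.52). It lay below it in TRIB3 (-0.64), CHAC1 (-3.03), NUPR1 (-0.42), SESN2 (-1.64) and DDIT4 (-0.43). Of all genes, 28.1% were called higher and 29.9% lower. The Polygalae Radix group held 1 library of each class, while the Aucklandiae Radix libraries were all class 1. The NUPR1 call ended without replicate 3 of either extract and the DDIT4 call without Polygalae Radix replicate 2, with adjusted p up to 0.201 and 0.277. Guibi-tang exceeded Saengmaek-san in CHAC1 (0.70) and STC2 (0.60), where 0.636% of all genes were higher and 1.57% lower. Groups had 2 or 3 libraries, so single libraries were not tested as outliers.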

How the results depend on the processing

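No called value reversed under any alternative. Counts of called members (of 10) that moved by over 1.5 times were as follows. With only the groups compared in the fit, Saengmaek-san against vehicle gave 0 in place of 1, Aucklandiae Radix high against low dose 9 in place of 4, Guibi-tang high against low dose 2 in place of 4, Guibi-tang minus Saengmaek-san 0 in place of 2, and the medium and low doses against vehicle 20 in place of 8 and 25 in place of 7 (of 70). With no filter, Aucklandiae Radix high against low dose gave 7 and Guibi-tang minus Saengmaek-san 5. With the class covariate Saengmaek-san against vehicle gave 2. Inside class 1, Aucklandiae Radix high against low dose gave 7 and Guibi-tang minus Saengmaek-san 0. Inside class 2, Saposhnikoviae Radix against vehicle gave 1 in place of 2, Saengmaek-san against vehicle 3, Guibi-tang high against low dose 1, Soyo-san high against low dose 5 in place of 3, and Guibi-tang minus Saengmaek-san 0. In these class fits the high-dose arm of Saposhnikoviae Radix or Guibi-tang in class 2, of Saengmaek-san in class 1 and the low-dose arm of Guibi-tang in class 2 held 1 library, assumed to vary like the other groups, so those counts say little. DESeq2 size factors took the Okbyeongpung-san values past 1.5-fold from 2 to 1. The class fit held all 57 libraries with groups split by class, so only groups of mixed class lost libraries from an arm. For Aucklandiae Radix and Soyo-san it compared the same libraries as the main fit, with another estimate of spread. The fits of only the groups compared held fewer libraries. What moved the counts was not tested. No count inside a class is given for the medium and low doses as a whole, since no class holds both vehicle and Menthae Herba or Aucklandiae Radix.

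With each library left out in turn, counts against vehicle ran from 7 to 10 for Polygalae Radix, 5 to 6 for Aucklandiae Radix, 8 to 8 for Menthae Herba, 0 to 1 for Saengmaek-san, 1 to 3 for Guibi-tang and 5 to 6 for Soyo-san. Against the low dose they ran from 7 to 10 for Polygalae Radix, 1 to 3 for Guibi-tang and 0 to 2 for Soyo-san, and stayed at 9 for Menthae Herba and 4 for Aucklandiae Radix. Guibi-tang minus Saengmaek-san ran from 2 to 4, the medium doses from 6 to 12 and the low doses from 4 to 7. Of 101 called values, 69 stayed past the threshold whichever library was left out.

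Replicate numbers were not used as pairs. In no comparison with 3 pairs did all correlations between same-numbered libraries pass 0.1. Those of high against low dose were 0.06, 0.10 and 0.41 for Guibi-tang and 0.02, 0.25 and 0.34 for Saengmaek-san. In these 2 extracts every replicate 2 library was class 1 and every replicate 3 library class 2. There the replicate number went with class, and the unpaired fit leaves that difference in the spread. With the replicate block, 182 of 185 member values kept their side of the threshold and 3 were newly called. Depth limits CHAC1 most, whose lowest library held 10 counts, while the lowest value of any other member was 75 counts, for NUPR1.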
